A study of Homo sapiens with 12 samples.

Results

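The genes described here are 9 chemokines (CXCL8, CXCL1, CXCL2, CXCL3, CXCL10, CCL2, CCL5, CCL20 and CX3CL1) and the cytokine IL6, taken by gene name from 58302 genes, of which 36305 were above 0 somewhere in the libraries. All 10 had a value in all 12 libraries. RNA was sequenced from 769-P and ACHN cells, human kidney cancer lines that the labels call clear cell renal cell carcinoma (ccRCC) cells, 48 h after transfection. In each line, siNUF2 cells had received siRNA against NUF2, a kinetochore protein that attaches chromosomes to the spindle, and siControl cells a control siRNA. Per the study's methods, the siRNA against NUF2 was a mixture of its siRNA2 and siRNA3. Each of the 4 groups has 3 replicates. The labels number the replicates and do not say whether they were separate cultures, so p-values measure only the spread between these libraries.

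Chemokines are small secreted proteins that draw leukocytes along a gradient by binding G protein-coupled receptors. CXCL8 and CXCL1, CXCL2 and CXCL3 bind CXCR2 and draw neutrophils. CCL2 draws monocytes through CCR2, CCL20 acts through CCR6, and CXCL10, through CXCR3, and CCL5 draw T cells. CX3CL1 is made as a membrane protein and is released when the proteases ADAM10 or ADAM17 cut it. IL6 signals through IL6R and the shared subunit IL6ST. Tumour cells can make these proteins themselves, and most of the genes are classical targets of NF-κB, while CXCL10 is also a classical interferon target.

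The genes lie in several places on GRCh38. CXCL8 (chromosome 4, 73740506 to 73743716, forward strand), CXCL1 (73869393 to 73871242, forward), CXCL3 (74036589 to 74038807, reverse), CXCL2 (74097035 to 74099293, reverse) and CXCL10 (76021117 to 76023497, reverse) are neighbours on chromosome 4. CCL2 (34255218 to 34257203, forward) and CCL5 (35871491 to 35880793, reverse) are on chromosome 17. CCL20 is on chromosome 2 (227805739 to 227817564, forward), CX3CL1 on chromosome 16 (57372458 to 57385048, forward) and IL6 on chromosome 7 (22725884 to 22732002, forward).

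Promoters from RefSeq (GRCh38.p14, 250 bases before to 50 after the start) were found for 7 of the 10 genes, and not for CCL2, CCL5 and CX3CL1. The start is that of RefSeq, while the spans above are those of GENCODE. It can thus lie inside a span, farthest for CCL20 and IL6. The promoters are shown because most of these genes moved together between the replicates of ACHN cells. Whether the motifs have a part in that was not tested. Each stretch is written 5′ to 3′ on the strand of the gene. Capitals mark matches, on either strand, to the NF-κB consensus, to the κB word GGAATTTCC, to the AP-1 word TGANTCA and to the interferon response word GAAANNGAAA. The stretches are at chr4:73740402-73740546 (CXCL8), chr4:73869284-73869384 (CXCL1), chr4:74099203-74099303 (CXCL2), chr4:74038698-74038798 (CXCL3), chr4:76023550-76023747 (CXCL10), chr2:227813733-227813832 (CCL20) and chr7:22727097-22727196 (IL6).
CXCL8: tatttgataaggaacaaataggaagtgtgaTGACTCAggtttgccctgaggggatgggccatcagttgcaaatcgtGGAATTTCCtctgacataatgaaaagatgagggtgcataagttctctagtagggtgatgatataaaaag
CXCL1: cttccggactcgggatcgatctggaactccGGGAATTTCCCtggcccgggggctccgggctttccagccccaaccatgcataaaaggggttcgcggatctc
CXCL2: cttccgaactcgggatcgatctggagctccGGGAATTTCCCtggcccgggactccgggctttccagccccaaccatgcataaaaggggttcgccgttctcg
CXCL3: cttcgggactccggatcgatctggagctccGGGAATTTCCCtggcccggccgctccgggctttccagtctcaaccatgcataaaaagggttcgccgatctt
CXCL10: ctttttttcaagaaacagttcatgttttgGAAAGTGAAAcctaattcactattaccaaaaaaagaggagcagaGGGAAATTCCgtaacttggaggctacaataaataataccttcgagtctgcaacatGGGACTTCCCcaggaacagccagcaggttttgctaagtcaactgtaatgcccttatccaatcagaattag
CCL20: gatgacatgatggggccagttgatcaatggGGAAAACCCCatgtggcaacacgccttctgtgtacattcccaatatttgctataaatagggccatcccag
IL6: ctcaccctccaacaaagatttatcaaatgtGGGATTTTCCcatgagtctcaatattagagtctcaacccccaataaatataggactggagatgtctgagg

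The word GGAATTTCC was present in the promoters of CXCL8, CXCL1, CXCL2 and CXCL3, and on the opposite strand in that of CXCL10. Of all 35116 promoters of this length, 0.461% hold it on either strand. The printed stretches of CXCL1, CXCL2 and CXCL3, which are close paralogs, are much alike, so their matches are not separate cases. In CXCL1, CXCL2 and CXCL3 the word overlapped matches to the NF-κB consensus and began 77 to 78 bases before the start. CCL20 and IL6 had a match to the consensus at a like distance, from 79 and 73 bases before the start, and CXCL10 had 2 matches further away. The consensus is found in 5.91% of all promoters, TGANTCA, here only in CXCL8, in 7.71%, and GAAANNGAAA, here only in CXCL10, in 3.57%. A match is a description of the letters and not evidence of binding in these cells.

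**Figure D1:**
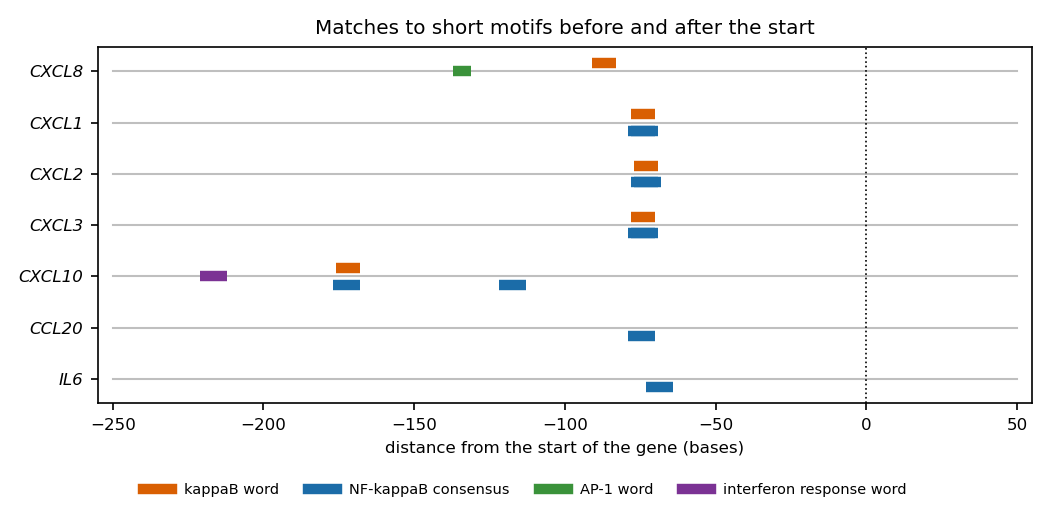
Matches to 4 short motifs (coloured bars, by motif) in the promoters of 7 genes, against the distance from the RefSeq start in bases. Grey lines show the window searched and the dotted line that start. The κB-type matches of CXCL8, CXCL1, CXCL2, CXCL3, CCL20 and IL6 lie between 91 and 64 bases before the start, and those of CXCL10 further away.

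The values are FPKM, fragments scaled by exon length and library size, and so can be compared between genes. Reads recovered from the FPKM summed to 29156132 to 38662417 per library. The NUF2 siRNA lowered its target in both lines, with a log2 difference of −2.29 in 769-P (SE 0.127, limma adjusted p = 0.00126) and −1.88 in ACHN cells (SE 0.324, adjusted p = 0.235, or 0.0122 with the replicate number as a block). In both lines no siNUF2 library overlapped a siControl library for NUF2. The renal markers PAX8, PAX2 and CDH16 were at 1 FPKM or more in every library, while CDH6 was near 0 in ACHN cells. Of 5 ccRCC markers, 2 were at 1 FPKM or more in every 769-P library and 3 in every ACHN library. The 5 summed to 134 to 196 FPKM over the libraries. CA9, a defining marker of ccRCC and one of the 5, was at 0.121 FPKM or less in every library of both lines. Of 11 leukocyte markers, none reached 1 FPKM in every library of any group, and their sum was 0.390 to 1.46 FPKM. The 5 endothelial markers summed to 0.0119 to 0.124 FPKM, and the 6 fibroblast markers to 0.0939 to 0.246 FPKM in 769-P and 38.1 to 62.7 FPKM in ACHN cells, most of it THY1. The 5 epithelial markers summed to 127 to 188 FPKM in 769-P and to 448 to 611 FPKM in ACHN cells, with KRT19 at 0.298 FPKM or less in 769-P and at 210 FPKM or more in ACHN cells.

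Replicate 2 of ACHN cells stood apart in both groups, and this touches every value of these genes in ACHN cells. Of 15112 genes tested in ACHN cells, 122 were at least 4 times lower in replicate 2 than in the other replicates of the same group, with siNUF2 as well as with siControl, and 31 were at least 4 times higher. The same counts were 45 and 61 for replicate 1 and 3 and 29 for replicate 3, and in 769-P cells they were at most 11 and 7. The 122 held 7 of the 8 chemokine and cytokine genes that passed the filter on low values. The siNUF2 results of these genes in ACHN cells are therefore given beside their values within same-numbered pairs. Log2 differences between the lines without replicate 2 are given only for CXCL8 and CCL20.

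CXCL8, CXCL1 and CXCL2, ligands of CXCR2, were among the most abundant of the 10 transcripts in ACHN cells, and CXCL3 was not. CXCL8, a strong neutrophil attractant, was at 618, 2.92 and 293 FPKM in siControl replicates 1, 2 and 3 of ACHN cells and at 325, 3.43 and 235 FPKM with siNUF2. Its level in 769-P cells was 1.24, 8.05 and 4.02 FPKM with siControl and 1.29, 4.36 and 2.23 FPKM with siNUF2. Replicates 1 and 3 of ACHN cells were thus far above all 769-P libraries, while replicate 2 lay within their range.

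CXCL1 showed the widest gap between the lines among the CXCR2 ligands. It was at 0.131, 0.818 and 0.357 FPKM in 769-P siControl cells and at 0.270, 0.349 and 0.602 FPKM with siNUF2, from 5 to 34 reads per library. ACHN cells held 356, 14.1 and 365 FPKM of it with siControl and 618, 21.7 and 757 FPKM with siNUF2. No ACHN library overlapped a 769-P library, replicate 2 included.

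CXCL2 was at 1.92, 4.14 and 7.18 FPKM in 769-P siControl cells and at 1.83, 2.55 and 4.29 FPKM with siNUF2. ACHN cells held 244, 37.4 and 213 FPKM with siControl and 251, 29.6 and 262 FPKM with siNUF2, again with no overlap between the lines. CXCL3, the least abundant of the 4 CXCR2 ligands in ACHN cells, was at 9.72, 1.57 and 15.9 FPKM with siControl and at 7.46, 1.39 and 18.3 FPKM with siNUF2. The values in 769-P cells were 0.321, 1.07 and 1.82 FPKM with siControl and 0.416, 0.736 and 1.13 FPKM with siNUF2. CXCL1, CXCL2 and CXCL3 are close paralogs, and how reads shared between them were counted is not stated, so the split between them is uncertain.

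The monocyte attractant CCL2 was close to 0 in 769-P cells, at 0.0171, 0.267 and 0.140 FPKM with siControl and at 0, 0.140 and 0.164 FPKM with siNUF2. Its level in ACHN cells was 69.9, 3.78 and 92.8 FPKM with siControl and 52.0, 3.00 and 106 FPKM with siNUF2. CCL20, the ligand of CCR6, was at 40.2, 1.10 and 69.2 FPKM in ACHN siControl cells and at 7.90, 0.409 and 26.1 FPKM with siNUF2. In 769-P cells CCL20 was at 0.253, 5.97 and 0.690 FPKM with siControl and at 0.190, 2.17 and 0.266 FPKM with siNUF2, with replicate 2 the highest of each group. Replicate 2 therefore held the highest CCL20 level in 769-P and the lowest in ACHN cells.

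CX3CL1 varied least between replicates. It was at 4.59, 5.49 and 4.58 FPKM in 769-P siControl cells and at 2.94, 3.80 and 2.94 FPKM with siNUF2, and at 12.8, 6.29 and 17.9 FPKM and 8.31, 3.91 and 14.4 FPKM in ACHN cells. The highest value of a group was 1.20 to 3.67 times its lowest over the 4 groups, against 3.38 to 212 times for CXCL8. All ACHN libraries were above all 769-P libraries of the same siRNA.

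IL6, a cytokine that drives the acute phase response, was near 0 in every 769-P library and above all of them in every ACHN library. 769-P cells held 0.115, 0.0151 and 0.0298 FPKM with siControl and 0.0462, 0 and 0.0786 FPKM with siNUF2, which is 0 to 7 reads per library. ACHN cells held 303, 3.31 and 193 FPKM with siControl and 249, 3.04 and 196 FPKM with siNUF2. The lowest ACHN library held 218 reads of it.

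The T cell attractants CXCL10 and CCL5 were low in both lines. CXCL10 was at 0.0866, 0.981 and 0.263 FPKM in 769-P siControl cells and at 0.434, 1.63 and 0.276 FPKM with siNUF2, and at 0.135, 0.0221 and 0.435 FPKM and 0.0698, 0 and 0.670 FPKM in ACHN cells. CCL5 was at 0.225, 0.268 and 0.0204 FPKM in 769-P siControl cells and at 0.991, 0.782 and 0.430 FPKM with siNUF2. In ACHN cells CCL5 was at 0.126, 0.0343 and 2.50 FPKM with siControl and at 0.181, 0.0191 and 1.64 FPKM with siNUF2. Its ACHN replicate 3 was above replicates 1 and 2 in both groups.

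Ordered by mean level with siControl, ACHN cells had CXCL8 (305 ± 308 FPKM, SD, n = 3), CXCL1 (245 ± 200), IL6 (166 ± 151), CXCL2 (165 ± 112), CCL2 (55.5 ± 46.2), CCL20 (36.9 ± 34.2), CX3CL1 (12.4 ± 5.84), CXCL3 (9.05 ± 7.18), CCL5 (0.887 ± 1.40) and CXCL10 (0.198 ± 0.213). Every gene in this order overlapped the next one. In 769-P siControl cells CX3CL1 led (4.89 ± 0.520 FPKM, SD, n = 3), followed by CXCL8 (4.44 ± 3.42), CXCL2 (4.41 ± 2.64), CCL20 (2.30 ± 3.18), CXCL3 (1.07 ± 0.751), CXCL10 (0.443 ± 0.474), CXCL1 (0.435 ± 0.350), CCL5 (0.171 ± 0.132), CCL2 (0.141 ± 0.125) and IL6 (0.0533 ± 0.0539), again with overlap between all neighbours. With siNUF2 the gaps without overlap were those between CXCL1 and CCL2 in 769-P and between CX3CL1 and CCL5 in ACHN cells.

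The basal levels of the lines were compared in the 6 siControl libraries with limma on log2(FPKM + 0.1). A gene was tested where 3 libraries or more reached a scaled FPKM of 0.5, and a gene with a Benjamini-Hochberg adjusted p under 0.05 over all genes tested was called. CXCL1, CXCL2, CXCL3, CCL2, CX3CL1 and IL6 were called higher in ACHN cells, 6 of the 8 that were tested, where 31.4% of all 15370 genes tested were. CCL2 and IL6 passed the filter through ACHN cells alone, and for CXCL1 the only 769-P library above 0.5 was replicate 2 (0.818 FPKM). The filter thus favoured a difference for CXCL1, CCL2 and IL6, which leaves 3 of the other 5 as called. The log2 difference was 8.08 for CXCL1 (SE 1.28), 5.0 for CXCL2 (SE 0.789, adjusted p = 0.00155) and 2.73 for CXCL3 (SE 0.916, adjusted p = 0.0369). It was 1.22 for CX3CL1 (SE 0.357, adjusted p = 0.0219), 7.09 for CCL2 (SE 1.19) and 8.64 for IL6 (SE 1.60). For CXCL1, CCL2 and IL6 it is a description. For genes near 0 in 769-P cells these values depend on the pseudocount of 0.1 and are not bounds.

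CXCL8 and CCL20 missed the threshold with all libraries, with a log2 difference of 4.55 (95% interval −0.06 to 9.16, adjusted p = 0.0797) and 3.67 (95% interval −0.37 to 7.71, adjusted p = 0.10). Without ACHN replicate 2 they passed, with 6.91 (SE 0.730, adjusted p = 0.000485) and 5.48 (SE 1.11, adjusted p = 0.00629), while CCL2 and IL6 then no longer passed the filter. The call of CXCL3 was lost with no filter (adjusted p = 0.0743) and with limma-voom (0.0563), without 769-P siControl replicate 1 or 2 (0.110 and 0.0726), and without ACHN siControl replicate 1 or 3 (0.0952 and 0.110). That of CX3CL1 was lost without 769-P siControl replicate 1 or 3 (adjusted p = 0.0625 and 0.0657) and without ACHN siControl replicate 1 or 3 (0.0587 and 0.0513). CXCL10 and CCL5 were below the filter, and their ranges in the lines overlapped. Over all 10 genes, every ACHN library was above every 769-P library for 5 genes with siControl and 6 with siNUF2. Without ACHN replicate 2 this held for 8 genes with each siRNA, but such a gap comes more easily with fewer libraries. The share of all genes with such a gap was not counted, so these counts are a description and no result about the group.

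The departure of ACHN replicate 2 can be read gene by gene, as its log2 level minus the mean of replicates 1 and 3. CXCL8 was 104 times lower in replicate 2 on average over both siRNAs, the 4th lowest of 15112 genes, and IL6 was 70.1 times lower, the 5th lowest. CCL20 was 35.2 times lower (8th), CXCL1 28.0 times (12th) and CCL2 22.2 times (15th). CXCL3 and CXCL2 were 7.66 and 7.21 times lower (63rd and 65th), and CX3CL1 was 2.55 times lower (370th). These folds are on the log2(FPKM + 0.1) scale and are given with no test.

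The other genes at the end of that order, named after their values were seen, were CSF2, LCN2, C3, SAA1, SOD2, C1QTNF1 and the unnamed gene AC116165.3. CSF2, which encodes the growth factor GM-CSF, was lowest of all, at 173, 0.330 and 108 FPKM with siControl and 144, 0.294 and 76.2 FPKM with siNUF2. LCN2, C3 and SAA1 encode secreted proteins of the acute phase and innate response. Among 17 NF-κB factors and inhibitors tested, 3 were at least 4 times lower in both libraries numbered 2 (NFKBIA, TNFAIP3 and BIRC3) and 0 were 4 times higher, with a median of −0.98 on the log2 scale against 0.00 for all genes. NFKBIA, the inhibitor IκBα, was at 88.0, 21.7 and 112 FPKM with siControl, and RELA, the p65 subunit, at 18.7, 15.0 and 19.3 FPKM. The 7 AP-1 and C/EBP factors held 0 such genes (median −0.13) and the 12 interferon response genes 0 (median −0.16). The 11 mRNA decay factors held 1, ZC3H12A (median −0.17).

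Of 10 other cytokines 3 (CSF2, TNF and LTB) and of 4 other chemokines 1 (CXCL5) were at least 4 times lower in both. Of the marker lists, the 4 renal markers tested had a median of 0.06 on the same scale, with PAX8 at −1.54, PAX2 at 0.54 and CDH16 at 1.15. The 5 epithelial markers had a median of 0.34, from −0.58 for CDH1 to 0.79 for KRT8. The 3 fibroblast markers tested were all higher in replicate 2, THY1 by 0.27, COL1A1 by 1.31 and PDGFRB by 2.11. The part of these factors and markers in the departure was not tested.

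In 769-P cells the replicates differed less and in another order. Replicate 2 was the highest for CCL20 in both groups, and its departure from replicates 1 and 3 (3.16 on the log2 scale on average) was the highest of all 14157 genes tested in that line. CXCL8 was 1.55 higher in that replicate on the same scale. In replicate 1 of 769-P cells, counted from the lowest of the 14157 genes, CCL20 was 18th, CXCL8 35th, CXCL3 59th and CXCL2 112th. Their average departures were −2.14, −1.66, −1.40 and −1.13, while CX3CL1 was 3412th, with −0.15. The levels of CXCL8, CXCL2, CXCL3 and CCL20 thus moved between replicates of both lines, and their same-numbered libraries mostly moved together.

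The effect of NUF2 depletion was then compared within each line. In 769-P cells CX3CL1 was the one of the 5 genes tested that was downregulated, with no overlap between siNUF2 and siControl libraries. Its log2 difference was −0.58 (SE 0.131, limma adjusted p = 0.0390), or 0.671 times the siControl level, and the 3 pairs gave −0.62, −0.50 and −0.60. With the replicate block its adjusted p was 0.00691. Of all genes, 5.45% were upregulated and 4.56% downregulated without the block, and 13.9% and 13.7% with it, so 1 of 5 says little about the group. The call of CX3CL1 was lost without siNUF2 replicate 1 (adjusted p = 0.0974) or 3 (0.126) and without siControl replicate 1 (0.0615), 2 (0.117) or 3 (0.0895). Leaving out a whole pair under the block kept it, with adjusted p-values of 0.0155 to 0.0385.

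CCL20 and the 3 CXCR2 ligands tested did not pass in 769-P cells. CCL20 was lower in all 3 pairs (−0.28, −1.40 and −1.09, with a fitted difference of −0.92, SE 1.17, adjusted p = 0.661, or 0.0549 with the block). CXCL2 was lower in all 3 pairs as well (−0.07, −0.66 and −0.71, adjusted p = 0.572, or 0.0644 with the block). CXCL8 gave 0.06, −0.85 and −0.80 (adjusted p = 0.664, or 0.105 with the block) and CXCL3 0.30, −0.47 and −0.63 (adjusted p = 0.805, or 0.436 with the block). With pair 1 left out under the block, CXCL8, CXCL2 and CCL20 were called lower (adjusted p = 0.0118, 0.0149 and 0.0160). In that fit 1202 of all 13581 genes tested were called lower and 1229 higher. The intervals of the differences without the block were wide, from −3.68 to 1.83 for CCL20 and from −2.14 to 1.07 for CXCL8.

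CXCL1, CXCL10, CCL2, CCL5 and IL6 were below the filter in 769-P cells and were compared 1 at a time with an exact permutation test (two-sided), for which 3 libraries against 3 cannot give a p below 0.1. CCL5 was higher in every siNUF2 library than in any siControl library, from 20 to 47 reads against 1 to 13 (difference 1.72 on the log2 scale, exact p = 0.1). CXCL10 was higher in all 3 pairs with overlapping groups (1.52, 0.69 and 0.07, exact p = 0.4). CXCL1 (0.10, exact p = 1), CCL2 (−0.23, exact p = 0.7) and IL6 (−0.10, exact p = 0.8) did not keep one direction over the pairs. In a fit with no filter CCL5 had an adjusted p of 0.181.

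In ACHN cells no gene was called without the block, so 0% is the background for the 0 of 8 tested here. At an unadjusted p under 0.05 there were 1230 of the 15112 genes, none of the 8 among them. With DESeq2 at the same adjusted p threshold, the study did report differentially expressed genes in ACHN cells. The lack of calls thus belongs to the limma fit on FPKM used here. A fit of all 12 libraries called 128 genes higher and 34 lower in ACHN cells, none of the 10 among them, and limma-voom called 0. With the replicate block, which takes out the level shared by same-numbered libraries, CXCL1 was upregulated and CCL20 and CX3CL1 were downregulated, while 6.80% of all genes were upregulated and 5.36% downregulated. CXCL1 rose by 0.83 (SE 0.088, adjusted p = 0.0147), to 1.74, 1.53 and 2.07 times the siControl level in the 3 pairs. CCL20 fell by 1.65 (SE 0.215, adjusted p = 0.0194), to 0.196, 0.371 and 0.377 times that level. CX3CL1 fell by 0.53 (SE 0.083, adjusted p = 0.0265), to 0.648, 0.623 and 0.801 times that level. Without the block their adjusted p was 0.989, 0.957 and 0.939.

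These 3 changes kept their direction in every pair but rest on few libraries. With pair 1, 2 or 3 left out under the block, the adjusted p was 0.0541, 0.0262 and 0.0732 for CXCL1, 0.0441, 0.0319 and 0.0856 for CCL20, and 0.0888, 0.0667 and 0.0741 for CX3CL1. CXCL1 and CCL20 therefore passed without the pair numbered 2, CCL20 alone without pair 1, and none of the 3 without pair 3. Of all genes, 464 of 14354 were called higher and 326 lower without pair 2. Without pair 1, 142 of 14412 were called higher and 66 lower. Without pair 3 none of all 14281 genes tested was called, so that fit says nothing particular about these 3.

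None of the other genes passed with the block, and their levels differed more between pairs than within them. IL6 differed up to 91.4 times between siControl replicates of ACHN cells, yet the siNUF2 library was at 0.823, 0.919 and 1.02 times its siControl partner. With the block the log2 difference of IL6 was −0.12 (95% interval −0.28 to 0.05, adjusted p = 0.281), and that of CCL2 −0.18 (−0.50 to 0.15, adjusted p = 0.394). CXCL2 had 0.01 (−0.30 to 0.32, adjusted p = 0.969) and CXCL3 −0.10 (−0.40 to 0.19, adjusted p = 0.588). CXCL8 had −0.33 (−0.86 to 0.20, adjusted p = 0.336), with the siNUF2 library at 0.525, 1.17 and 0.803 times its partner. CXCL10 (log2 differences of −0.46, −0.29 and 0.53 in the pairs) and CCL5 (0.32, −0.17 and −0.57), both below the filter in ACHN cells, gave an exact permutation p of 1 and 0.9. In bulk RNA, fewer cells that express a gene and less RNA of it per cell cannot be told apart.

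CCL20 and CX3CL1 were lower with siNUF2 in 3 of 3 pairs in each line. The share of all genes with such pairs was not counted, so this is a description and no result about the group. The differences in response between the lines were tested as the interaction in a fit of all 12 libraries, where all 10 genes passed the filter. None of the 10 was called, with or without the block, against 0% and 1.42% of 16579 genes (765 genes and 3260 genes at an unadjusted p under 0.05). The response of CX3CL1 differed by 0.04 between the lines (95% interval with the block −0.21 to 0.29) and that of CCL20 by −0.74 (−1.65 to 0.17). CCL5 came nearest to the threshold, with a response lower by 1.87 in ACHN than in 769-P cells (SE 0.353 with the block, adjusted p = 0.0626, or 1.00 without the block). For CXCL1 the difference was 0.72 (−0.36 to 1.80 with the block).

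The counts over other gene lists given next stand beside the shares of all genes called. In 769-P cells these were 5.45% upregulated and 4.56% downregulated, or 13.9% and 13.7% with the block, in ACHN cells 6.80% and 5.36% with the block, and between the lines 31.4% higher and 30% lower in ACHN cells. Of the receptors for these proteins, 2 of 14 passed the filter in each line, IL6R and IL6ST. CXCR2 and CX3CR1 were at 0.01 FPKM or less in every library. IL6ST, the signalling subunit gp130, was downregulated in 769-P cells by 0.95 (SE 0.118, adjusted p = 0.00817), from 14.6, 16.4 and 20.03 FPKM to 8.28, 9.06 and 8.42 FPKM. In ACHN cells it had 19.96, 16.1 and 23.5 FPKM with siControl and 12.1, 11.1 and 15.0 FPKM with siNUF2, and it passed with the block only (−0.62, SE 0.053, adjusted p = 0.0122, or 0.443 without the block). IL6R went the other way in the lines with the block, −0.51 in 769-P (adjusted p = 0.0116) and 0.67 in ACHN cells (adjusted p = 0.0207), and passed in neither without it. Neither receptor differed beyond the threshold between the lines with siControl.

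Among proteases that release or trim chemokines, 1 of 4 tested was downregulated in 769-P cells (4.56% of all genes), DPP4, which trims CXCL10 and CCL5, by 1.03 (SE 0.187, adjusted p = 0.0215). With the block ANPEP passed too (−0.51, adjusted p = 0.00836). In ACHN cells DPP4 was the 1 of 3 tested that passed with the block (−0.61, adjusted p = 0.0191). ADAM10, which cuts CX3CL1, had a difference of 0.11 in 769-P (adjusted p = 0.358, or 0.173 with the block) and 0.02 in ACHN cells (0.785 with the block). ADAM17, which also cuts CX3CL1, had −0.13 in ACHN cells (adjusted p = 0.184 with the block). With siControl, ADAM10 and ADAM17 were higher in ACHN cells (0.97 and 0.86, adjusted p = 0.00153 and 0.00328) and ANPEP lower (−8.02, adjusted p = 1.30e-06, a value that depends on the pseudocount).

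Of the NF-κB factors and inhibitors, 1 of 16 tested was upregulated and 4 were downregulated in 769-P cells, against 5.45% and 4.56% of all genes. With the block 1 and 9 were called, against 13.9% and 13.7%. Their median difference was −0.25, against −0.01 for all genes. NFKB2 fell from 21.6, 20.5 and 22.0 FPKM to 12.8, 12.5 and 12.8 FPKM (−0.73, SE 0.063, adjusted p = 0.00368), and the inhibitor NFKBIE fell by 0.80 (SE 0.087, adjusted p = 0.00575). BIRC3, an inhibitor of apoptosis and NF-κB target, fell by 1.63 (SE 0.272, adjusted p = 0.0172), and NFKBIA fell by 0.65 (adjusted p = 0.0304). NFKBIB was the one that rose (0.54, adjusted p = 0.0488). NFKBIZ, the most abundant of the list, had −0.22 (adjusted p = 0.380). In ACHN cells 1 of 17 was upregulated and 2 were downregulated with the block (median −0.11, against 0.00 for all genes), with differences of 0.53 for NFKBIB (adjusted p = 0.0358), −0.31 for BCL3 (adjusted p = 0.0303) and −0.74 for BIRC3 (adjusted p = 0.0335). Between the lines, 7 of 17 were higher in ACHN cells and 2 lower (31.4% and 30% of all genes), with differences of 4.41 for TRAF1 (adjusted p = 2.39e-05), 1.89 for RELB (adjusted p = 0.00131) and −0.67 for NFKBIE (adjusted p = 0.00287).

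The AP-1 and C/EBP factors held 0 calls of 7 tested in either line without the block. With it, FOSL1 rose (0.39, adjusted p = 0.00573) and CEBPB fell (−0.27, adjusted p = 0.0137) in 769-P cells, and none passed in ACHN cells. Of 11 mRNA decay factors, which include proteins that destabilise chemokine and cytokine mRNA, 1 was downregulated in 769-P cells, ZFP36 (−0.81, SE 0.174, adjusted p = 0.0338), and 4 with the block, ZFP36L1 (−0.36, adjusted p = 0.00769) and ZFP36L2 (−0.61, adjusted p = 0.00586) among them. In ACHN cells 1 passed with the block, RC3H2 (−0.30, adjusted p = 0.0430). With siControl, 2 of 11 mRNA decay factors were higher in ACHN than in 769-P cells and 4 lower (31.4% and 30% of all genes). ZFP36 was lower (−1.22, adjusted p = 0.00150) and ZC3H12C higher (1.86, adjusted p = 0.00563). Of 7 AP-1 and C/EBP factors 4 were higher in ACHN cells and 1 lower. ATF3 was among the higher ones (2.37, adjusted p = 6.31e-05), and JUNB was the lower one (−1.19, adjusted p = 0.00133).

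CXCL10 and CCL5, both below the filter in 769-P cells, are interferon targets. They were higher with siNUF2 in every 769-P pair, with an exact permutation p of 0.4 for CXCL10 and 0.1 for CCL5. In pair 3 CXCL10 had 10 reads in each library, a log2 difference of 0.07. Whether they follow the other interferon targets was not tested. Of 12 other interferon response genes tested 2 were upregulated, IFI44 by 2.70 (SE 0.428, adjusted p = 0.0146) and IFIT1 by 2.66 (SE 0.517, adjusted p = 0.0254), and 9 with the block, with 0 downregulated. The median was 1.26, against −0.01 for all genes. In ACHN cells the median was −0.22, and with the block 4 of 12 were downregulated and 0 upregulated, with differences of −0.52 for IFIT3 (adjusted p = 0.0168), −0.41 for IFIT2 (adjusted p = 0.0206) and −0.36 for STAT2 (adjusted p = 0.0336) among them.

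Of 32 other chemokines, 4 passed the filter in each line. None was called in either line without the block (adjusted p of 0.156 for CCL15, the lowest in 769-P, and 0.950 for CXCL14, the lowest in ACHN cells). With the block, CXCL12, which binds CXCR4, rose in 769-P cells (0.59, adjusted p = 0.0157) and CCL15 fell (−0.76, adjusted p = 0.0318). CXCL12 was at 0 in every ACHN siControl library and CCL28 at 0.0150 FPKM or less in 769-P cells, against 3.27, 2.09 and 2.87 FPKM in ACHN siControl cells. Of the other cytokines, CSF1 (−0.59, SE 0.120, adjusted p = 0.0285) and IL32 (−0.55, SE 0.123, adjusted p = 0.0367) were the 2 of 9 tested that were downregulated in 769-P cells. In ACHN cells 3 of 10 were downregulated with the block, IL32 (−0.51, adjusted p = 0.0168), LIF (−0.34, adjusted p = 0.0334) and IL15 (−0.63, adjusted p = 0.0335). LIF, IL18 and IL23A were higher in ACHN cells with siControl (1.94, 2.28 and 1.64, adjusted p = 0.000378, 0.00105 and 0.00145).

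For the 5 genes that passed the filter in both lines, the most similar patterns over the 12 libraries were sought among 12932 genes, as Pearson's r of the log2 levels centred within each line. These values rest largely on ACHN replicate 2 and are given with no test. CXCL8 was most like SAT1 (0.981), PRKCQ (0.978) and TTC32 (0.976), and CXCL2 most like MORC4 (0.978), C9orf16 (0.966) and DRAM1 (0.965). CXCL3 was most like PARP8 (0.968), AL161669.3 (0.962) and TNFAIP3 (0.962). CCL20 was most like ARHGAP26 (0.968), ICAM1 (0.962) and NEURL3 (0.959), and CX3CL1 most like SOX9 (0.976), LGALS3 (0.963) and CSF1 (0.961).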

How the data were processed

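Total RNA from 769-P and ACHN cells was sequenced on an Illumina platform. The deposited files hold FPKM, made by the authors from reads filtered with fastp, with HISAT2 2.0.5, featureCounts 1.5.0-p3 and hg38 named in the submitters' processing notes. The strand setting and annotation are not given in the sources used here, so reads of overlapping or antisense genes cannot be told apart.

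Groups follow the labels. The genes and lists were chosen with earlier results of these data known. FPKM were scaled by a trimmed mean of log ratios (30% and 5% trimmed), and log2(FPKM + 0.1) was fitted across all genes with limma 3.58.1 in R 4.3.3 (lmFit, eBayes with a trend, Benjamini-Hochberg adjustment) where 3 libraries or more reached a scaled FPKM of 0.5. Fold changes on this scale understate those of low genes. Each line was fitted alone, the interaction in all 12 libraries, and the lines in the 6 siControl libraries. The fits were tested on simulated data.

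Replicate numbers were taken as pairing the libraries, since their departures from the group mean correlated between siNUF2 and siControl at 0.358, 0.272 and 0.188 in 769-P and at 0.647, 0.734 and 0.463 in ACHN cells for numbers 1, 2 and 3, each library best with its own number. What the numbers stand for is not given in the labels. The fit without the block came first, and the block is given beside it. Named genes are all 10 members, NUF2, and from each list the 3 genes with the lowest adjusted p and the most abundant one. NFKBIA and NFKBIB in 769-P, STAT2 in ACHN cells, CXCR2 and CX3CR1, and genes given for replicate 2 of ACHN cells were named after their values were seen. Some genes that this rule names are not reported here.

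The reads behind the FPKM were recovered as whole multiples of the value of 1 read (96.2% to 96.6% of values under 200 reads, tolerance 0.02 reads), for 57092 genes and not for CCL20. They served for depth and for limma-voom, which called 975 genes higher and 869 lower in 769-P and 0 in ACHN cells. Precision was limited by the spread between replicates, and for low genes also by the number of reads. Within groups no library was a copy of another (chi-square per gene at least 14.5). Promoters come from RefSeq. Alternatives were pseudocounts of 1 and 0.01, no filter, at least 1 FPKM in every library, no scaling, median-ratio scaling, the block, 1 fit of 12 libraries, limma-voom and each library left out. Leaving out both ACHN libraries numbered 2, or a whole pair with the block, was chosen after seeing the data. Python 3.11.15, NumPy 2.4.6, pandas 2.3.3 and matplotlib 3.10.9 were used.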

Additional observations from a re-analysis of the deposited data

Results flagged for a closer look

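None of the 10 chemokine and cytokine genes met a rule for a closer look. Among the other genes named, 5 went one way in all 3 pairs of 769-P cells and the opposite way in all 3 pairs of ACHN cells. The share of all genes that do so was not counted. These 5 were taken for their opposite directions, so the p-values of that difference are a description. The response (siNUF2 minus siControl, log2) in ACHN minus that in 769-P cells was −1.35 for IFIT2, −1.73 for IFIT3 and −1.81 for IRF7, which are interferon response genes, −0.79 for IL15 and 1.17 for IL6R. The responses in 769-P and ACHN cells were 0.93 and −0.41 for IFIT2, 1.21 and −0.52 for IFIT3, 1.32 and −0.48 for IRF7, 0.16 and −0.63 for IL15, and −0.51 and 0.67 for IL6R. Limma's test of this difference gave adjusted p-values of 0.908 to 1.00 without the block. With the block they were 0.0269 for IFIT2, 0.0678 for IFIT3, 0.0644 for IL15, 0.0315 for IL6R and 0.0377 for IRF7. In that fit 1.42% of all 16579 genes tested were called. No group has enough libraries for a test of single libraries far from the others.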

How the results depend on the processing

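In 769-P cells the count of 1 became 0 without a filter and in 1 fit of all 12 libraries. It ran from 0 to 1 with each library left out and from 1 to 4 with each pair left out under the block. The count of 4 came without pair 1, where 1202 of all 13581 genes tested were called lower. In ACHN cells the count of 0 became 3 with the block, was 0 with any library left out, and ran from 0 to 2 with each pair left out under the block. There the count of 0 came without pair 3, where 0 of all 14281 genes tested were called. Between the lines with siControl the count of 6 became 2 with at least 1 FPKM in every library and 3 with limma-voom, which lost CXCL3, CCL2 (adjusted p = 0.0563) and IL6 (0.134), was 5 with no filter, and ran from 2 to 6 with each library left out. The block changed no other call of the 10 genes than those given above. The cause of these changes was not tested, except that fewer genes passed the stricter filter.

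Directions turned in places, that of CXCL1 in ACHN cells, called with the block, among them. CXCL2 in ACHN cells had −0.000527 with FPKM as deposited, −0.000714 in the fit of all 12 libraries and −0.000477 with limma-voom. With each library or pair left out, the ACHN differences ran from −2.71 to 1.77 for CXCL8, −0.72 to 2.49 for CXCL1, −0.86 to 1.05 for CXCL2, −1.07 to 0.89 for CXCL3, −1.63 to 1.35 for CCL2, −2.16 to 1.93 for IL6, −3.47 to −0.04 for CCL20 and −0.97 to −0.04 for CX3CL1, since leaving out 1 library breaks a pair. In 769-P cells they ran from −1.23 to 0.0626 for CXCL8 and from −0.87 to 0.22 for CXCL3. Depth limits CXCL1, CXCL10, CCL2, CCL5 and IL6 in 769-P cells, where a library can hold 0 to 55 reads of them.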
